A study of Mus musculus with 4 samples.

Results

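The genes described here are 10 transcripts of the extracellular matrix, measured in myeloid cells sorted from mouse tumours. They were taken by name out of the 17476 genes counted, and all 10 had a row. They are the fibrillar collagen chains Col1a1, Col1a2, Col3a1 and Col5a2, the basement membrane chains Col4a1 and Col4a2, the microfibrillar chain Col6a1, and the matrix glycoproteins and proteoglycan Sparc, Fn1 and Dcn. Measured values were not used to pick them by a threshold, but they were chosen with earlier results of these libraries known. The cells were myeloid-derived suppressor cells (MDSCs), immature myeloid cells of granulocyte and monocyte type that dampen T cell responses. They were differentiated in culture from bone marrow of C57/BL6 mice, here the wild-type (WT) group, or of TREM2mut mice, which carry a mutated Trem2 gene for a lipid-sensing myeloid receptor. The strain of every sample is labelled C57BL/6, and no source used here states what the Trem2 mutation is. Both groups share the same host: NRG males, an immunodeficient strain, challenged under the skin at 6 weeks of age with TRAMP-C1, a mouse prostate cancer line. The MDSCs were given after 4 weeks and the tumours were taken 6 h later, digested for 45 minutes and sorted for CD45+, CD11B+, GR1+ cells. That gate does not separate injected cells from the myeloid cells of the host, so a genotype label belongs to the injected cells only. There were 2 libraries per genotype, called WT 1, WT 2, Trem2 mutant 1 and Trem2 mutant 3 after their columns. The labels do not say whether they came from separate animals, so the p-values reflect the spread of these libraries alone, which may be technical.

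Collagens are secreted proteins in which chains wind into a triple helix, held by a glycine that recurs at the first place of each residue triplet. Fibroblasts, pericytes and other mesenchymal cells make most interstitial collagen, while type IV collagen forms the sheet of basement membranes beneath endothelium and epithelium. Fibronectin, SPARC and decorin bind collagens and shape their assembly, and fibronectin is also made by macrophages. Leukocytes as a rule make little fibrillar collagen.

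The repeat that defines the family can be read in the coding sequence, and it is shown because it separates the long unbroken fibrillar chains from the interrupted network chains whose values are compared below. Each line gives the first 90 bases of the longest run of glycine codons in the longest coding transcript of GENCODE M21, 5′ to 3′, with each glycine codon (GGN) that opens a triplet in capitals.
Col1a1: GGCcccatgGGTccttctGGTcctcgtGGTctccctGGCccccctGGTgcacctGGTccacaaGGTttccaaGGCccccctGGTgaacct
Col3a1: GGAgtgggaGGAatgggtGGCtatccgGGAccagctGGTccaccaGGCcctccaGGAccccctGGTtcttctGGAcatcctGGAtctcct
Col6a1: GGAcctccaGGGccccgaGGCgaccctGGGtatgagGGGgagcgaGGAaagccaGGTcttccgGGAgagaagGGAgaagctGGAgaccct
Col4a1: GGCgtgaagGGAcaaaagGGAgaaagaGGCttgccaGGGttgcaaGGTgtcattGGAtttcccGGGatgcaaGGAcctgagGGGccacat
Col4a2: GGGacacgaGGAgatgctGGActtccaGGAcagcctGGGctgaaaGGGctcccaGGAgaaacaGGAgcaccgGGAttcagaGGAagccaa
The longest unbroken run held 338 repeats in Col1a1, 339 in Col1a2, 344 in Col3a1 and 339 in Col5a2. It held 87 in Col6a1, 66 in Col4a2 and 40 in Col4a1, both of whose type IV transcripts had 18 separate runs of 10 or more repeats.

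The pair of type IV genes lies head to head on chromosome 8, and its promoter is shown because the values of these neighbours are set side by side below. The annotated genes overlap by 22 bases and their start sites are 21 bases apart. The RefSeq windows (GRCm38.p6) run from 250 bases before to 50 after each start site, and capitals mark the 78 bases that both windows hold on opposite strands.
Col4a1 promoter, chr8:11312777-11313076, minus strand: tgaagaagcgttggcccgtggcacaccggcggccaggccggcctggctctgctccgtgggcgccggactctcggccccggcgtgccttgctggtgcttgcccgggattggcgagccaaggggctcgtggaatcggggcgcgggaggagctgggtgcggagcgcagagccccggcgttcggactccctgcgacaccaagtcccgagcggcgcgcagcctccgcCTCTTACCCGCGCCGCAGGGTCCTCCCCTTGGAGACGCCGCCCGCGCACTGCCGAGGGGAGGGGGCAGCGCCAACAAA
Col4a2 promoter, chr8:11312555-11312854, plus strand: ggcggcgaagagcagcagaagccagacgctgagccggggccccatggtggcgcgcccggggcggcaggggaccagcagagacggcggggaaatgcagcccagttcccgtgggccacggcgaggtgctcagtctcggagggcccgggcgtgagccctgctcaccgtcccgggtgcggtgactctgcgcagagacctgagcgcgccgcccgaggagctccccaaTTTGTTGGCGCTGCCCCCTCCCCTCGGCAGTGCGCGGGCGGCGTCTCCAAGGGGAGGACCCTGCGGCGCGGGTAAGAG
A CCAAT box (CCAAT, either strand) was found once in each window and in 37.4% of all 32851 promoter windows of that length. A GC box (GGGCGG, either strand) was found once in the Col4a1 window and 3 times in the Col4a2 window, and in 35.7% of all windows. The Col4a1 GC box lies in the shared bases and is also counted for Col4a2. The table held promoters of 6 of the 10 genes.

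Totals ran from 8037733 to 8077966 reads in the WT libraries and from 9820893 to 10306674 in the mutant libraries. Values are read counts and CPM (TMM-scaled counts, relative to sequencing depth), a scaling that corrects totals for the few genes that take many reads. Such a gene, Gm42418, took 13.9% of reads in Trem2 mutant 1 and at most 1.04% in the other libraries. Trem2 had 406 and 477 reads in WT against 191 and 195 in mutant libraries (48.2 ± 5.69 against 21.9 ± 1.36 CPM, SD, n = 2). It was 2.20-fold lower (edgeR quasi-likelihood test, Benjamini-Hochberg adjusted p = 0.00157), which cannot check the labels at the mutated site because that site is not given. Xist, an RNA that coats the silenced X chromosome in females, had 2 and 3 reads in WT against 6928 and 9117 in mutant libraries. Genotype and this sex-linked difference cannot be told apart.

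Most of these matrix transcripts were higher in sorted cells from tumours that received Trem2 mutant MDSCs. The test called 7 of the 10 genes higher in mutant libraries: Col1a1, Col1a2, Col3a1, Col5a2, Col6a1, Sparc and Fn1, by 2.85-fold to 4.38-fold. Col4a1, Col4a2 and Dcn did not pass. Over the 14239 genes tested, 9.55% were called higher and 3.6% lower. All 10 genes passed the filter on low counts. Both mutant libraries lay above both WT libraries for 9 of them, with Col4a2 the exception, against 28.9% of all genes tested. The median log2 fold change of the 10 was 1.76, beside -0.02 over all genes tested. Together the 10 genes made up 0.0410% (WT 1) and 0.0473% (WT 2) of reads, against 0.115% in Trem2 mutant 1 and 0.0841% in Trem2 mutant 3. In bulk RNA, more cells of a type and more RNA per cell cannot be told apart.

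**Figure D1:**
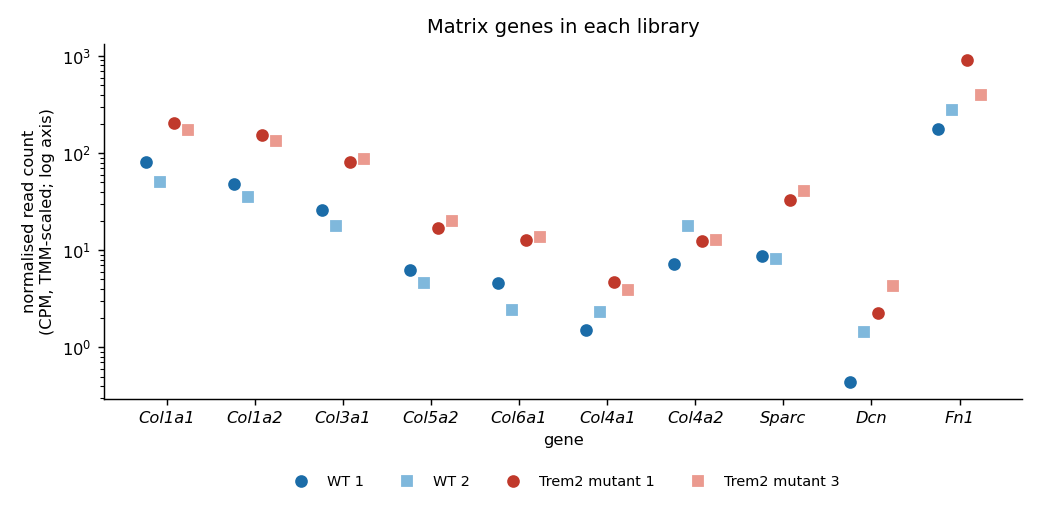
Normalised read count (CPM, log axis) of each of the 10 matrix genes in each of the 4 libraries, 1 point per library. Both mutant libraries lie above both WT libraries for every gene but Col4a2, whose WT libraries, at 7.29 and 17.8 CPM, enclose the mutant ones.

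Type I collagen is the main fibre of skin, bone and scar, and Col1a1 (ENSMUSG00000001506, chr11:94936224-94953042, plus strand, GRCm38) encodes its alpha-1 chain. Col1a1 had 742 and 465 reads in WT 1 and WT 2 and 1705 and 1597 in Trem2 mutant 1 and Trem2 mutant 3. The mutant libraries lay well above both WT libraries, and WT 1 was above WT 2. Its level went from 65.8 ± 21.1 to 188 ± 23.1 CPM (SD, n = 2 each), a log2 fold change of 1.51 (SE 0.194, edgeR adjusted p = 0.00286). Col1a2 (ENSMUSG00000029661, chr6:4504814-4541544, plus strand) encodes the alpha-2 chain of the same fibre. It had 442 and 325 reads in WT against 1270 and 1238 in mutant libraries, in the same order of libraries as Col1a1. The rise was from 41.8 ± 8.84 to 143 ± 13.5 CPM, 3.41-fold (log2 1.77, SE 0.143, edgeR adjusted p = 0.000426). Per kilobase of transcript, Col1a1 exceeded Col1a2 in every library, by 1.51 and 1.29 times in WT 1 and WT 2 and by 1.21 and 1.16 times in Trem2 mutant 1 and Trem2 mutant 3. The ratio was thus lower in both mutant libraries, with no test made of it.

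Col3a1 (ENSMUSG00000026043, chr1:45311538-45349706, plus strand) encodes type III collagen, which forms fibres with type I in vessel walls, skin and early wounds. Its reads were 238 and 164 in WT and 677 and 808 in mutant libraries. The level rose from 21.9 ± 5.61 to 84.0 ± 4.06 CPM, 3.83-fold (log2 1.94, SE 0.158, edgeR adjusted p = 0.000433). Both groups stood apart by more than their spread. Col5a2 (ENSMUSG00000026042, chr1:45374321-45503282, minus strand), the neighbour of Col3a1 on chromosome 1, encodes a type V chain that starts and thins type I fibrils. It had 58 and 42 reads in WT against 140 and 187 in mutant libraries. Its level rose 3.38-fold (log2 1.76, SE 0.210, edgeR adjusted p = 0.00211), from 5.45 ± 1.21 to 18.4 ± 2.35 CPM. Col3a1 per kilobase was 0.342 and 0.376 of Col1a1 in WT 1 and WT 2, and 0.423 and 0.539 in Trem2 mutant 1 and Trem2 mutant 3. This ratio was higher in both mutant libraries, again with no test.

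Col6a1 (ENSMUSG00000001119, chr10:76708792-76726168, minus strand) encodes a chain of type VI collagen, the beaded filament around cells. It had 42 and 22 reads in WT and 106 and 126 in mutant libraries. The rise from 3.49 ± 1.53 to 13.1 ± 0.596 CPM was 3.75-fold (log2 1.91, SE 0.284, edgeR adjusted p = 0.00526). Its partner chains in the same filament also rose: Col6a2 had 34 and 21 reads against 93 and 97 (log2 fold change 1.84, edgeR adjusted p = 0.00472). Col6a3 had 40 and 21 against 118 and 138 (log2 fold change 2.12, edgeR adjusted p = 0.00318). In each of the 3 chains WT 2 was the lowest library.

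Neither chain of type IV collagen passed the test. Col4a1 (ENSMUSG00000031502, chr8:11198423-11312826, minus strand) had 14 and 21 reads in WT and 39 and 36 in mutant libraries. Its level was 1.91 ± 0.549 against 4.27 ± 0.568 CPM, and at these few reads the log2 difference of 1.15 (SE 0.330) did not pass (edgeR adjusted p = 0.0588). It passed without the noncoding and mitochondrial genes (edgeR adjusted p = 0.0495) and without Trem2 mutant 3 (0.0427), within a range of 0.0427 to 0.322 over all alternatives. Col4a2 (ENSMUSG00000031503, chr8:11312805-11449287, plus strand) had 67 reads in WT 1, 163 in WT 2, 104 in Trem2 mutant 1 and 120 in Trem2 mutant 3. The WT libraries were the lowest and the highest of the 4, so the groups overlapped. The level was 12.6 ± 7.46 against 12.7 ± 0.310 CPM (log2 fold change 0.01, SE 0.354, edgeR adjusted p = 0.984). That value turned on 1 library, being -0.49 without WT 1 and 0.80 without WT 2. Per kilobase, Col4a2 exceeded Col4a1 4.91 and 7.96 times in WT 1 and WT 2, and 2.73 and 3.42 times in the mutant libraries. Annotated antisense genes without a row here overlap both genes, introns included: Gm15419 over 18707 bases of Col4a2 and Gm15418 over 6081 bases of Col4a1. No source used here states whether counting used the strand. In the longest coding transcripts, 0 of 6376 windows of 75 bases in Col4a2 were shared with transcripts of another gene on either strand. The same held for 0 of 6541 windows in Col4a1. The part of antisense reads in these values was not tested.

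**Figure D2:**
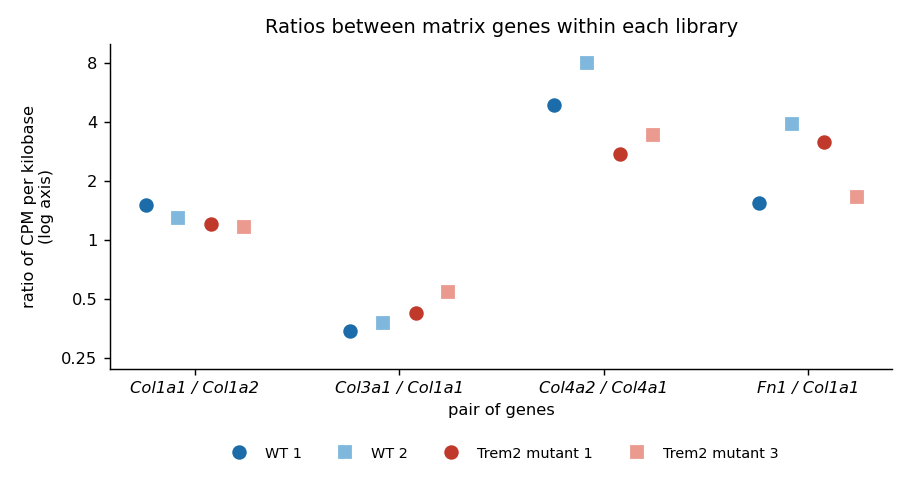
Ratio of CPM per kilobase of transcript (log axis) between 4 pairs of matrix genes, 1 point per library. Col1a1 over Col1a2 and Col4a2 over Col4a1 are lower and Col3a1 over Col1a1 is higher in both mutant libraries, while Fn1 over Col1a1 overlaps between genotypes, from 1.55 to 3.88 in WT.

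Sparc (ENSMUSG00000018593, chr11:55394500-55423183, minus strand) encodes a collagen-binding glycoprotein that acts in the handling of procollagen at the cell surface. It had 80 and 75 reads in WT and 276 and 381 in mutant libraries. Its level rose 4.38-fold (log2 2.13, SE 0.156, edgeR adjusted p = 0.000263), from 8.46 ± 0.348 to 37.0 ± 5.57 CPM. The WT libraries were nearly level and the mutant ones far above them. Dcn (ENSMUSG00000019929, chr10:97479609-97518143, plus strand) encodes decorin, a small leucine-rich proteoglycan that coats collagen fibrils and is a standard fibroblast transcript. It had 4 and 13 reads in WT and 19 and 40 in mutant libraries, and the 4 reads of WT 1 have a 95% Poisson interval of 1.09 to 10.2 reads, for counting error only. The level was 0.929 ± 0.699 against 3.29 ± 1.43 CPM. The groups did not overlap, but the log2 difference of 1.82 (SE 0.552) did not pass (edgeR adjusted p = 0.0686). It passed when totals alone were used for scaling (0.0260) and without Trem2 mutant 1 (0.0133), within a range of 0.0133 to 0.322 over all alternatives.

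Fn1 (ENSMUSG00000026193, chr1:71585520-71653200, minus strand) encodes fibronectin, which links cells to collagen through integrins. It was the most abundant of the 10, with 1611 and 2532 reads in WT 1 and WT 2, 7566 in Trem2 mutant 1 and 3723 in Trem2 mutant 3. The groups did not overlap, yet the libraries of each genotype differed widely. The level was 226 ± 72.1 against 653 ± 358 CPM, a log2 fold change of 1.53 (SE 0.359, edgeR adjusted p = 0.0309). This call was lost without WT 1 (log2 1.24, edgeR adjusted p = 0.160) and in DESeq2 (log2 1.55, adjusted p = 0.135), with adjusted p from 6.85e-07 to 0.160 over the alternatives. The fold change fell to a log2 value of 0.83 without Trem2 mutant 1 and was 2.02 without Trem2 mutant 3. Fn1 held 48.8% and 66.2% of the reads of the 10 genes in WT 1 and WT 2, and 63.6% and 45.1% in Trem2 mutant 1 and Trem2 mutant 3. The antisense gene Apol7d overlaps Fn1 by 364 bases and had 59, 85, 245 and 91 reads in the same order of libraries, and without strand the reads of both cannot be told apart there.

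Levels of different genes were compared per kilobase of the longest coding transcript. In WT the order from the top was Fn1 at 27.2 ± 8.67 CPM per kilobase, Col1a1 at 11.1 ± 3.56, Col1a2 at 7.82 ± 1.65, Col3a1 at 3.94 ± 1.01 and Sparc at 3.68 ± 0.151. Below them came Col4a2 at 1.95 ± 1.16, Col6a1 at 0.851 ± 0.373, Col5a2 at 0.823 ± 0.183, Dcn at 0.528 ± 0.397 and Col4a1 at 0.289 ± 0.0829 CPM per kilobase. Fn1, Col1a1, Col1a2 and Col3a1 followed each other in this order in every one of the 4 libraries. Neighbours whose values overlapped between WT libraries were Col1a1 and Col1a2, Col3a1 and Sparc, Col6a1 and Col5a2, Col5a2 and Dcn, and Dcn and Col4a1. In mutant libraries Fn1 stood at 78.6 ± 43.0, Col1a1 at 31.7 ± 3.89, Col1a2 at 26.7 ± 2.52, Sparc at 16.1 ± 2.42 and Col3a1 at 15.1 ± 0.729 CPM per kilobase. Col4a2, at 1.97 ± 0.0480, now stood below Col6a1 at 3.20 ± 0.145 and Col5a2 at 2.78 ± 0.355, which it had exceeded on average in WT. Dcn followed at 1.87 ± 0.814 and Col4a1 at 0.646 ± 0.0858 CPM per kilobase. Neighbours that overlapped between mutant libraries were Sparc and Col3a1, and Col4a2 and Dcn. With the length of all annotated exons in place of that transcript, Col4a1 stood above Dcn in both groups, at 0.256 against 0.159 in WT and 0.572 against 0.563 CPM per kilobase in mutant libraries, and no other places changed.

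The libraries of 1 genotype also differed among themselves, and not in the same way for every matrix gene. WT 1 exceeded WT 2 in CPM for Col1a1 (1.59 times, 95% counting interval 1.41 to 1.78), Col1a2 (1.35 times, 1.17 to 1.56), Col3a1 (1.44 times, 1.18 to 1.77) and Col6a1 (1.90 times, 1.11 to 3.34). The opposite held for Fn1, where WT 2 exceeded WT 1 1.58 times (1.49 to 1.68), for Col4a2 at 2.45 times (1.83 to 3.30) and for Dcn at 3.27 times (1.01 to 13.8). The intervals of Col5a2, Sparc and Col4a1 included equal levels. Between the mutant libraries Fn1 was 2.27 times higher in Trem2 mutant 1 (2.18 to 2.36), whereas Col1a1 was 1.19 times higher (1.11 to 1.27) and Col1a2 1.14 times (1.06 to 1.24). Sparc and Dcn were lower there, at 0.807 (0.689 to 0.945) and 0.529 (0.290 to 0.936) of Trem2 mutant 3. These are exact binomial intervals for counting error only.

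In WT, Fn1 thus ranked the libraries in the opposite order to Col1a1 and Col1a2, while in the mutant group all of them were higher in Trem2 mutant 1. Among the 12 macrophage markers, 10 (83.3%) were higher in WT 2 than in WT 1 and higher in Trem2 mutant 1 than in Trem2 mutant 3, as Fn1 was. Of all genes tested 26.1% had this order, and of the 10 matrix genes only Fn1 and Col4a1 did. The order was not limited to macrophage markers: 6 of 8 platelet markers (75.0%) and both tested proteoglycans other than Dcn had it too. All these counts use direction alone, however small the difference. Among the macrophage markers, the 95% counting intervals excluded equal levels in both pairs for Mrc1, C1qa, C1qb, C1qc and Apoe. For Adgre1, Csf1r, Mertk, Maf and Cd163 the WT interval included equal levels. Csf1r was 1.02 times and Adgre1 1.04 times higher in WT 2 than in WT 1. Mrc1, the mannose receptor of resident macrophages, had 543 and 862 reads in WT and 1453 and 940 in mutant libraries. C1qc, a complement subunit made by macrophages, had 136, 175, 480 and 255 reads in the same order. Both were picked as examples after their values were seen. Of the macrophage markers, Mrc1 had the largest ratio between the WT libraries and C1qc the largest between the mutant libraries. The part of macrophage content in the Fn1 value was not tested.

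**Figure D3:**
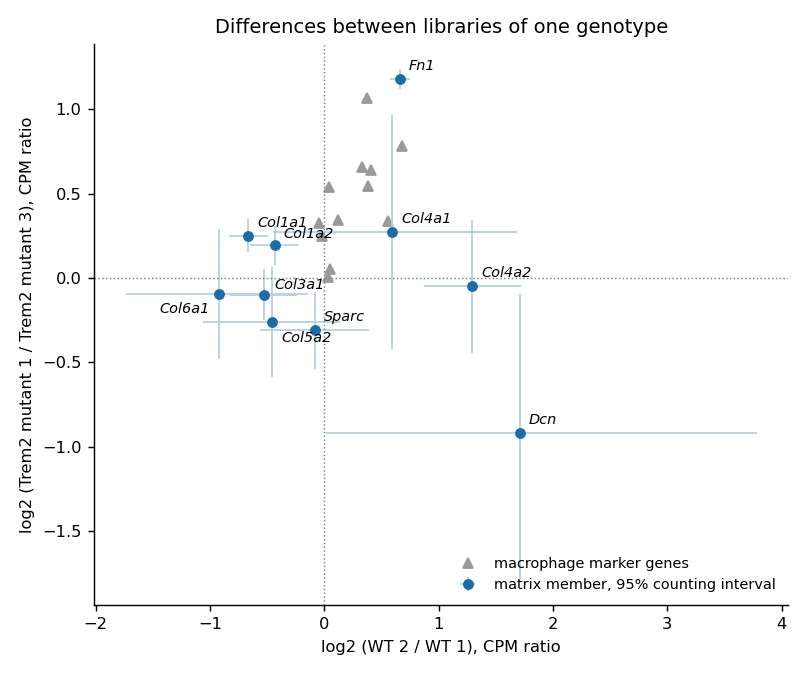
Log2 ratio of CPM between the libraries of each genotype, WT 2 over WT 1 on the horizontal and Trem2 mutant 1 over Trem2 mutant 3 on the vertical axis, for the 10 matrix genes (circles, bars are 95% counting intervals) and 12 macrophage markers (triangles). Fn1 lies at the upper right, at ratios of 1.58 and 2.27, above every macrophage marker on the vertical axis (C1qc is next at 2.10), while Col1a1, Col1a2 and Col3a1 lie to the left of the vertical line.

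Other matrix genes were read from lists by role. The counts of this and all later lists stand beside 9.55% called higher and 3.6% called lower over all genes tested. Of 17 further fibrillar and fibril-associated collagens 11 were measured and 10 tested, and 5 were called higher (median log2 fold change 1.33). Col5a3, another type V chain, rose 3.90-fold (edgeR adjusted p = 0.00327), and Col12a1, which binds the surface of type I fibrils, rose 4.57-fold (edgeR adjusted p = 0.00561). Col5a1, the main type V partner of Col5a2, rose 2.07-fold (edgeR adjusted p = 0.0132), a call lost without WT 2 (0.0639). Col9a2, a cartilage chain, had 3, 1, 26 and 15 reads in WT 1, WT 2, Trem2 mutant 1 and Trem2 mutant 3 (edgeR adjusted p = 0.0158, lost without either WT library). It passed the filter on low counts (1.12 CPM before TMM scaling in at least 2 libraries) only through the mutant libraries, so it could be tested only because it was higher there, and it is 1 of the 5. Fewer of the list were called without WT 1 or without WT 2, and its median log2 fold change was then 1.30 and 0.99. Fewer were then also called over all genes, so drops of this kind in the lists below are not particular to those lists. Genes of these lists without a row were not analysed here.

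Among 13 tested basement membrane genes 4 were called higher and 1 lower (median log2 fold change 0.78). Nid1, the nidogen that ties laminin to type IV collagen, rose 4.40-fold (edgeR adjusted p = 0.00083). Hspg2, which encodes perlecan, rose 3.50-fold (0.00157), and Lamb1, a laminin chain, rose 2.92-fold (0.0214, but 0.149 without WT 1). Col15a1, a basement membrane collagen, went the other way and was 1.79-fold lower (edgeR adjusted p = 0.00545). Of this list 2 were called higher without WT 1, and with library totals alone 3 were higher and 3 lower. Of 7 other network and transmembrane collagens tested, only Col6a2 and Col6a3 were called (median log2 fold change 0.29). Col8a1, of vessel walls, and Col23a1, a transmembrane collagen, gave log2 differences of 1.16 and -0.39 (edgeR adjusted p = 0.113 and 0.130). The small leucine-rich proteoglycans, the family of Dcn, were scarce: 5 of 12 had a row and 2 were tested. Bgn, which encodes biglycan, had 34 and 36 reads in WT against 142 and 132 in mutant libraries and rose 4.07-fold (edgeR adjusted p = 0.00108). Ogn had 0, 5, 12 and 11 reads and did not pass (edgeR adjusted p = 0.119), having entered the test only through the mutant libraries.

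Elastic fibre and fibronectin-associated genes were called higher in 7 of 12 tested (median log2 fold change 1.45). Fbn1 and Fbn2, the fibrillins of microfibrils, rose 3.92-fold and 4.80-fold (edgeR adjusted p = 0.000857 and 0.0055). Fbln2, a fibulin that binds fibronectin, rose 3.92-fold (0.000337), and Ltbp1, which holds latent TGF-beta in the matrix, rose 2.44-fold (0.0221, lost without either WT library). The count of 7 was 3 without WT 1 and 3 without WT 2, and 2 of the 7, Fbn2 and Efemp1, passed the filter only through the mutant libraries. Of 12 tested matricellular genes, whose products modulate cell contact with matrix, 8 were called higher (median log2 fold change 1.11). Tnc, which encodes tenascin-C, rose 3.52-fold (edgeR adjusted p = 0.000338). Postn, which encodes periostin, rose 3.90-fold (0.00164) and Thbs2, a thrombospondin of fibroblasts, 5.23-fold (0.00211). Ccn3 rose 2.08-fold (0.0016) from the higher level of 243 ± 17.4 CPM. The count of 8 was 4 without WT 1 and 5 without WT 2. Sparcl1, the relative of Sparc, had 0 reads in WT against 16 in both mutant libraries together and was not tested, being at least 5.54-fold higher against a floor of 3 reads over the WT group.

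Genes that modify, process or cross-link collagen were split: 9 of 23 tested were called higher and 1 lower (median log2 fold change 0.20). Serpinh1, the collagen chaperone HSP47 of the endoplasmic reticulum, rose from 27 and 16 to 84 and 90 reads, 4.19-fold (edgeR adjusted p = 0.00381). Bmp1, the procollagen C-proteinase, rose 4.61-fold (0.00521). The cross-linking lysyl oxidases Lox and Loxl2 rose 3.48-fold and 3.82-fold (edgeR adjusted p = 0.00316 and 0.00605). Loxl3, another lysyl oxidase, named after its value was seen, was 1.82-fold lower (edgeR adjusted p = 0.0119, lost without either WT library). P4ha1, a prolyl hydroxylase subunit, also named after its value was seen, was 169 ± 8.16 against 184 ± 6.37 CPM (edgeR adjusted p = 0.345). Of the 9, Fkbp10, Adamts2 and Loxl1 passed the filter only through the mutant libraries. The count of 9 was 5 without WT 1 and 5 without WT 2, and with library totals alone 8 were higher and 5 lower. Of 19 matrix receptors tested 2 were called higher and 1 lower (median log2 fold change 0.15), close to the 9.55% and 3.6% of all genes tested. Mrc2, the endocytic collagen receptor of mesenchymal cells, rose 5.15-fold (edgeR adjusted p = 0.0147), and the syndecan Sdc2 rose 5.27-fold (0.00732, but 0.0520 without WT 2). Itgb3, the beta chain of the vitronectin receptor, was 2.07-fold lower (0.000642), at 119 ± 0.402 against 57.3 ± 5.75 CPM. Ddr2, a collagen-binding receptor kinase, did not pass (log2 1.44, edgeR adjusted p = 0.0526).

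**Figure D4:**
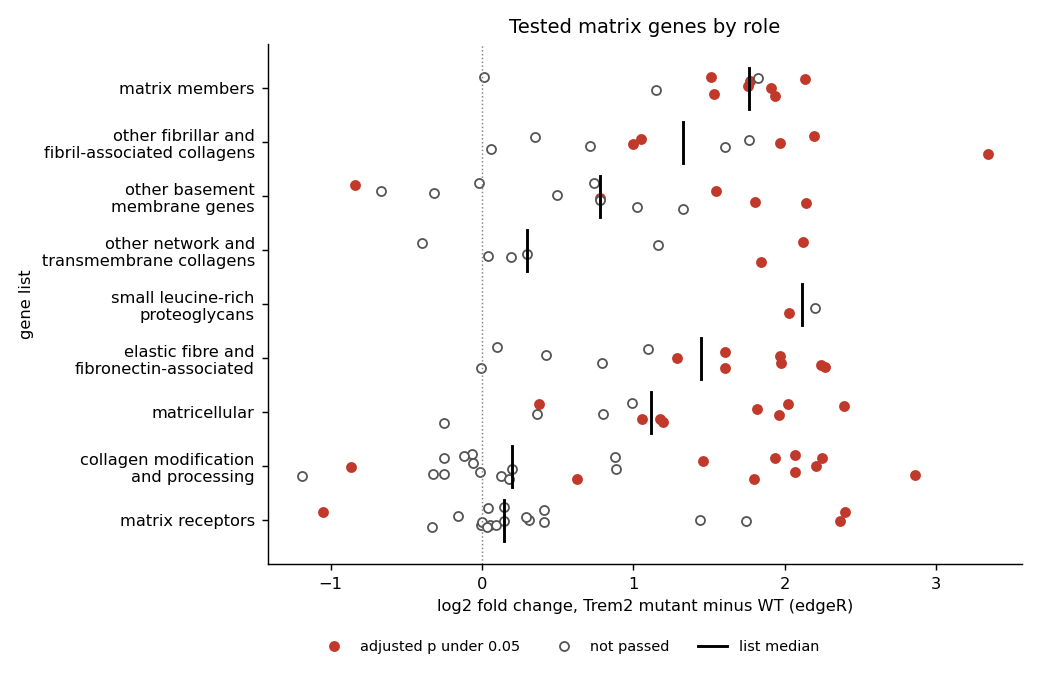
Log2 fold change (Trem2 mutant minus WT, edgeR) of each tested gene in the 10 matrix genes and 8 further lists by role, 1 point per gene, filled where the adjusted p was under 0.05, with a bar at the list median. The median runs from 0.15 in matrix receptors to 2.11 in the 2 tested proteoglycans, and the 10 matrix genes have a median of 1.76.

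Markers of the cells that usually make matrix were measured beside the matrix genes. Of 13 tested fibroblast and mural cell markers 4 were called higher (median log2 fold change 0.72), but 1 without WT 1 and 1 without WT 2. Dpt, a dermal matrix protein of fibroblasts, had 3, 1, 14 and 16 reads in WT 1, WT 2, Trem2 mutant 1 and Trem2 mutant 3 (edgeR adjusted p = 0.017, lost without either WT library). It passed the filter only through the mutant libraries, as did Prrx1 and Notch3, which were not called. Mcam, a pericyte and endothelial adhesion molecule, rose 3.39-fold (0.00864, but 0.0702 without WT 1), Thy1 2.15-fold (0.0478, lost under 8 of 13 alternatives) and Pi16 1.57-fold (0.00682, but 0.166 with library totals alone and 0.0602 without WT 2). Pdgfra, the fibroblast receptor, had 4, 7, 9 and 8 reads and was not tested, while Pdgfrb had 20, 14, 28 and 26 (edgeR adjusted p = 0.202). Acta2, the actin of smooth muscle and myofibroblasts, was 64.9 ± 4.03 against 59.3 ± 1.74 CPM (edgeR adjusted p = 0.376); it, Pdgfra and Pdgfrb were named after their values were seen. Summed over the 15 measured markers, the list stood at 164 to 181 CPM in WT and 208 to 232 in mutant libraries. Most of that sum came from Acta2 and from Pi16, at 66.2 ± 6.03 against 104 ± 9.24 CPM, so it says little of the scarcer markers. Of the 15, 5 had a mean under 1 CPM in WT. Both mutant libraries lay above both WT libraries for 10 of the 13 tested markers and below them for 1. Over all genes tested these shares were 28.9% and 31.7%. At an unadjusted edgeR p under 0.05, 8 of the 13 were higher and 0 lower. The 10 matrix genes summed to 359 and 418 CPM in WT and to 887 and 1426 in mutant libraries, with 45.1% to 66.2% of their reads from Fn1. Without Fn1 they made up 0.0210% and 0.0160% of reads in WT 1 and WT 2. The shares without Fn1 were 0.0421% in Trem2 mutant 1 and 0.0462% in Trem2 mutant 3. The part of such cells in the matrix values was not tested.

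Endothelial markers summed to 175 to 177 CPM in WT and 165 to 185 in mutant libraries, with 2 of 6 tested called higher and 1 lower (median log2 fold change 0.54). Most of that sum was Vwf, at 106 ± 6.47 against 64.8 ± 6.48 CPM, and Pecam1, at 60.0 ± 3.89 against 86.4 ± 16.1 CPM. These moved in opposite directions, so the sum says little of the scarcer markers. Both mutant libraries lay above both WT libraries for 5 of the 6 and below them for 1, against 28.9% and 31.7% of all genes tested. Erg rose 3.68-fold (edgeR adjusted p = 0.00816, but 0.0519 without WT 1) and Pecam1 1.44-fold (0.0391, lost under 4 alternatives), and Vwf was 1.64-fold lower (0.00399). The defining endothelial cadherin Cdh5, named after its value was seen, had 1, 2, 7 and 4 reads. Epithelial markers summed to 155 to 161 CPM in WT and 87.3 to 89.0 in mutant libraries, nearly all of it Cdh1, which was 1.84-fold lower (0.000635). Of 8 tested platelet markers edgeR called 0 higher and 0 lower, also 0 in DESeq2 and limma-voom. At an unadjusted edgeR p under 0.05, 1 was higher. With library totals alone 2 were called lower, a setting that called 4365 genes lower in all. The platelet markers summed to 54.5 to 63.7 CPM in WT and 57.3 to 69.2 in mutant libraries. Of 4 tested marrow stroma and osteoblast markers 2 were called higher, Cxcl12, with 5, 7, 26 and 25 reads (edgeR adjusted p = 0.0141), and Runx2 (0.0281). Both calls were lost without WT 1, without WT 2 and in DESeq2, Runx2 also with library totals alone, and Cxcl12 passed the filter only through the mutant libraries.

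Leukocyte markers moved with genotype as well. Of 12 granulocyte markers 11 were called higher (median log2 fold change 2.91), with Ltf, which encodes lactoferrin, 98.7-fold and Ngp 97.4-fold higher (edgeR adjusted p = 9.8e-06 each). Their sum was 7268 to 7398 CPM in WT and 26652 to 31822 in mutant libraries. Of 12 macrophage markers 5 were called higher and 0 lower (median log2 fold change 0.85, or 0.60 without WT 1). They did not all move 1 way. Both mutant libraries lay above both WT libraries for 7 of the 12 and below them for 3, against 28.9% and 31.7% of all genes tested. With library totals alone 5 were called higher and 3 lower. The sum of the 12 was 1814 to 1918 CPM in WT and 1690 to 1965 in mutant libraries. C1qa and Apoe were 2.10-fold and 1.88-fold higher (edgeR adjusted p = 0.0186 and 0.0172, both lost without WT 1). The gate markers were present in every library: Ptprc, which encodes CD45, was 1138 ± 34.1 against 1346 ± 24.7 CPM (edgeR adjusted p = 0.147), and Itgam, which encodes CD11b, rose 1.52-fold (0.00429, but 0.237 with library totals alone and 0.0671 without WT 1). The GR1 antigens Ly6g and Ly6c2 rose 20.6-fold and 12.8-fold (edgeR adjusted p = 8.45e-06 and 2.35e-05). The part of these shifts in the matrix values was not tested.

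**Figure D5:**
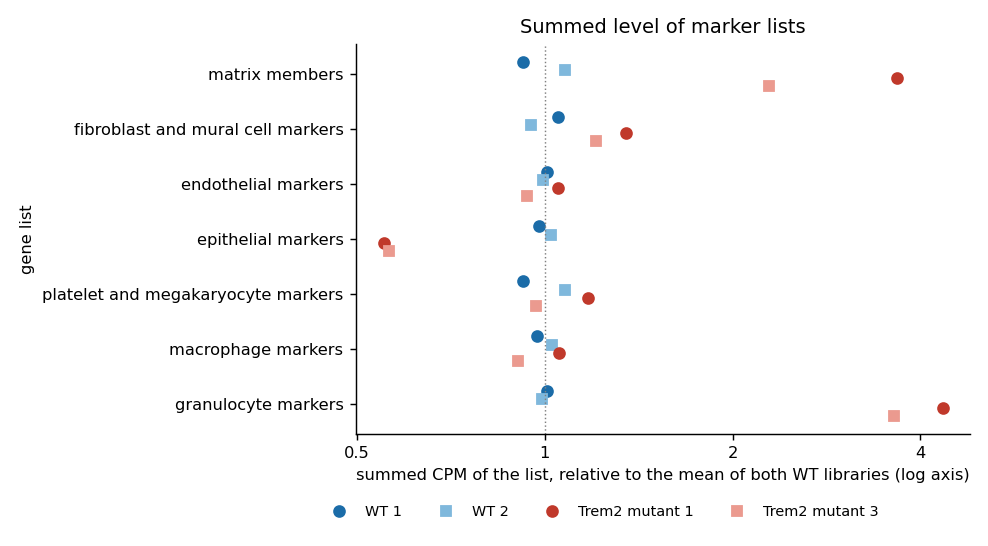
Summed CPM of the 10 matrix genes and of 6 marker lists in each library, relative to the mean of both WT libraries (log axis), 1 point per library. The matrix genes (887 and 1426 CPM) and granulocyte markers (26652 and 31822 CPM) are far to the right in the mutant libraries. The sum of fibroblast markers, most of it Pi16 and Acta2, is slightly to the right, and epithelial markers are to the left. The endothelial sum is mostly Vwf and Pecam1, which moved in opposite directions.

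The genes nearest in pattern over the 4 libraries to the mean of the 10 matrix genes were sought with those 10 left out. Likeness was the Euclidean distance between centred log2(CPM + 1) profiles over the 4 libraries, for protein-coding genes with a mean of at least 5 CPM. That minimum also left out scarcer matrix genes. The search can therefore not show whether matrix genes were near each other. The nearest were Ifitm1 (0.0929), Slc24a3 (0.102), Lrrk2 (0.103), 6430548M08Rik (0.106), Slc15a2 (0.120), St8sia1 (0.135), 9830107B12Rik (0.150) and Msmo1 (0.150). Ifitm1, an interferon-induced membrane protein, had 2825 and 2847 reads in WT and 6868 and 7000 in mutant libraries. The 10 genes themselves lay farther from their own mean, from 0.399 for Col5a2 to 0.924 for Fn1 and 1.52 for Col4a2.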

How the data were processed

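RNA was measured in 4 libraries, 2 per genotype. The deposited values are raw read counts per Ensembl gene, not normalized by the authors. Total RNA was depleted of ribosomal RNA and sequenced on a NextSeq, per the labels. Per the submitters' processing notes, STAR 2.5.2a, FastQC and DESeq2 were used with GRCm38 (mm10); for the read counter, strand use and annotation release, no source used here gives a value. Of 17476 gene IDs, 17422 matched GENCODE M21, used for names, positions and lengths; no gene had fewer than 11 reads in all.

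Analysis used edgeR 4.0.16 in R 4.3.3: filterByExpr (14239 genes left), TMM scaling and the two-sided quasi-likelihood test of genotype, with Benjamini-Hochberg adjustment over all tested genes at 0.05. The fit had 2 residual and 5.71 prior degrees of freedom, so precision rests mainly on the spread pooled over genes (common biological coefficient of variation 0.106). The squared difference within a pair, over that from counting alone, had a median of 2.151 in WT and 8.427 in mutant. It was taken against library totals without TMM scaling, so shifts of composition enter it. The TMM factors were 1.15 and 1.13 in WT 1 and WT 2, and 0.811 and 0.949 in Trem2 mutant 1 and Trem2 mutant 3. The medians can therefore not be compared as noise, and they do not show that libraries came from separate animals. A floor of 3 reads is 0.322 to 0.359 CPM.

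The members and lists were chosen with earlier results of these data known. Named genes were the 10 members, up to 4 genes with the lowest p in each of 16 other lists, and the 8 nearest profiles. Examples outside this rule are said to be so where named. Trem2, Xist, Gm42418, Gm15418, Gm15419, Apol7d and Sparcl1 were named after their values were seen or as checks. Column number 3 of the mutant matches no label number, so that library was used with its group alone. Alternatives were other scalings, filters, tools (DESeq2 1.42.0, limma-voom with limma 3.58.1), a bias-adjusted form, leaving out noncoding and mitochondrial genes, and leaving out each library.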

Additional observations from a re-analysis of the deposited data

How the results depend on the processing

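Across 13 alternatives to the edgeR quasi-likelihood fit, Col1a1, Col1a2, Col3a1, Col5a2, Col6a1 and Sparc kept their direction and their call. The number of matrix genes called higher ranged from 6 (DESeq2, and without WT 1) to 8. Fn1 was lost in DESeq2 (log2 fold change 1.55) and without WT 1 (1.24), and Col4a1 and Dcn passed in 2 alternatives each. Col4a2 changed sign with library totals alone (-0.36), upper-quartile scaling (-0.024) and without WT 1 (-0.49), and was 0.80 without WT 2; the cause was not tested. Over all genes the main count was 1360 higher and 513 lower. With library totals alone it was 650 higher and 4365 lower, and the median of all genes moved from -0.02 to -0.40 on the log2 scale; the median of the 10 matrix genes was then 1.39. DESeq2 called 1063 higher and 198 lower. Leaving out 1 library gave 489 to 2090 higher and 92 to 912 lower, and the lone library of a group was then assumed to vary like the other group. No paired analysis was possible because the mutant column number 3 matches no label number, so the groups share only the number 1. The lowest read counts among the matrix genes were those of Dcn (4 to 40 per library) and Col4a1 (14 to 39); the part of depth in their missed calls was not tested.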
